A study of Mus musculus with 6 samples.

Results

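The exons described here are very short internal exons of mouse genes, 3 to 51 bases long, in blastocysts injected as zygotes with an siRNA against Eif4a3 or with a negative control siRNA. Overlapping exon lines of a gene were merged into blocks, and a block counted as such an exon when it was neither the first nor the last of its gene, held at least 30 counts over the 6 libraries, and lay in a gene with at least 50 counts in every library. The members were thus chosen by length, position and the counts of both groups added together, so their depth is not a finding. By this rule 1907 blocks in 1430 genes were found, of 291424 blocks in all. Of the 9943 internal blocks of this length in the annotation, 3495 lay in genes with enough counts, and the remaining step was the minimum of 30 counts. The 25420 internal blocks of 100 to 200 bases that met the same count rules served for comparison.

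Each library was made from a pool of 5 mouse embryos collected on day 5 and sequenced after Smart-seq2, a full-length cDNA method that copies polyadenylated RNA, with paired reads of 150 bases. The NC group (3 libraries) carried a control siRNA, written siRNA-NC in the labels, and the knockdown group (3 libraries) carried siRNA-Eif4a3. Both groups were microinjected, and no strain is named in the labels. Whether the pools of a group were collected separately is not stated, so p-values measure the spread between these libraries, which may be partly technical. Because each library is a whole-embryo pool, fewer cells of a type and less RNA per cell cannot be told apart.

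An internal exon is normally recognised by contacts between splicing factors across its own length. The shortest exons, known as microexons, leave little room for this and depend on signals in the neighbouring introns and on dedicated regulators such as Srrm4, which is best known in neurons. Eif4a3 is the RNA helicase that clamps the exon junction complex onto spliced RNA just upstream of each junction. The complex also takes part in nonsense-mediated decay and, for some genes, in the choice of splice sites.

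The sequences below are those of 9 of the exons described: 5 of the 6 shortest with at least 100 counts, an 18-base exon counted very deeply, 2 that fell in the knockdown, and 1 from a gene whose first blocks were higher together. Each is printed 5′ to 3′ on the sense strand with the exon in capitals and 20 bases of the adjoining exons in lower case, from GENCODE vM21 transcripts on GRCm38.
Cyth2, 3 bases, chr7:45808730-45808732: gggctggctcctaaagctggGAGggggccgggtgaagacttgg
Hnrnpm, 8 bases, chr17:33669169-33669176: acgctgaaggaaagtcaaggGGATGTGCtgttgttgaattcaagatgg
Pitpna, 8 bases, chr11:75608107-75608114: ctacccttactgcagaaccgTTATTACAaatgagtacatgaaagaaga
Pitpnb, 8 bases, chr5:111347120-111347127: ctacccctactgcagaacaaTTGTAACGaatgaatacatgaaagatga
Psap, 9 bases, chr10:60297537-60297545: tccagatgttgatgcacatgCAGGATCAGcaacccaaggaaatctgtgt
Hprt, 18 bases, chrX:53012277-53012294: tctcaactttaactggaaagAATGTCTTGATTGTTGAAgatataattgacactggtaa
Dppa4, 51 bases, chr16:48289328-48289378: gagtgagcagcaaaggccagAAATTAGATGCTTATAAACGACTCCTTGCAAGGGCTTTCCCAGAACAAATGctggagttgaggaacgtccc
Dnmt3l, 45 bases, chr10:78050916-78050960: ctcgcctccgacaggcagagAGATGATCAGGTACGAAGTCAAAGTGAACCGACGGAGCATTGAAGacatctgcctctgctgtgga
Kpna4, 45 bases, chr3:69102204-69102248: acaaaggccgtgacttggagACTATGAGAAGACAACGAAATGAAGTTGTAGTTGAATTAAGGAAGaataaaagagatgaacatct
All 9 are coding exons in that annotation. It does not hold the 5 exons that rose in the usage test below as internal exons, so no sequence is printed for them. The 8-base exons of Pitpna and Pitpnb, a pair of related phosphatidylinositol transfer proteins, were identical at 5 of 8 positions.

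Eif4a3 itself was counted at 302, 255 and 202 CPM (counts scaled to the library total after edgeR's TMM adjustment) in the NC libraries. In the knockdown libraries it was at 16.03, 36.2 and 56.2 CPM. The groups did not overlap, and the gene fell by 2.81 on the log2 scale (SE 0.44, adjusted p = 0.00512, edgeR's quasi-likelihood test).

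Summed over the blocks, the libraries held 15607227 to 18697754 counts. Sums over marker genes are in CPM of these totals, without the TMM adjustment. Markers of the 3 embryonic lineages were present in all libraries, and those of the epiblast separated the groups: the summed level of 7 trophectoderm genes was 1891 to 6068 CPM in NC and 426 to 2440 CPM in the knockdown, that of 5 epiblast genes 342 to 464 against 126 to 184 CPM, and that of 5 primitive endoderm genes 82.0 to 97.1 against 52.3 to 86.8 CPM. Of 5 cumulus cell markers, 4 were at 0 in every library, and 5 neuronal markers summed to 0.590 to 4.30 CPM in NC and 0.743 to 5.67 CPM in the knockdown. Muscle markers (4 genes) summed to 3.97 to 7.78 against 8.81 to 14.3 CPM, and blood markers (3 genes) to 5.07 to 32.7 against 2.79 to 4.39 CPM. The part of these lineage differences in the exon results was not tested.

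In structure, the short exons had a median length of 43 bases (quartiles 36 and 48), and 162 were 27 bases or shorter. Their length was a multiple of 3 in 41.6% of cases, against 36.6% of the blocks of 100 to 200 bases. GENCODE vM21 holds 1842 of them as internal exons with the same start and end. Of these 1674 are coding, 86 partly coding or untranslated, 33 found only in transcripts marked for nonsense-mediated decay, and 49 in other noncoding transcripts. Among these 1842, 325 (17.6%) are skipped by at least 1 transcript that spans them, against 11.4% of the longer blocks. Of the skipped short exons 50.2% had a length divisible by 3, against 36.8% of the skipped longer blocks. GC content was lower, with a median of 45% against 49.0%, while the median introns upstream (1308 against 1320 bases) and downstream (1105 against 1220 bases) were of like length. These are descriptions of the 2 sets, and no test of the differences was made.

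Usage was measured in 2 ways: as the share of the gene, meaning the block's counts as a percentage of the summed counts of all blocks of its gene, and as the ratio to neighbours, meaning the block's counts divided by the mean of the 2 flanking blocks. A read that crosses several blocks is counted in each, so the share of a short exon depends more on read length than on its own length. In NC the median share was 4.76% for the short exons and 6.30% for the longer blocks, and the median ratio to neighbours was 0.792 and 1.03. Short exons that every spanning transcript holds had a median ratio of 0.801, and those that some transcript skips 0.740.

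As a group the short exons kept nearly the same share in the knockdown. The median change in share, knockdown relative to NC, was 0.05 on the log2 scale (quartiles -0.12 and 0.29), beside 0.01 (quartiles -0.20 and 0.22) for the blocks of 100 to 200 bases and 0.01 over all 71885 blocks tested. Of the 1907 short exons, 1468 (77.0%) stayed within 0.5 on the log2 scale. Taken library by library against the NC mean, the median of the short exons was 0.01, -0.02 and 0.00 in NC and 0.07, 0.03 and 0.05 in the knockdown. All 3 knockdown medians thus lay above all 3 NC medians, by an amount close to the spread within NC. For the longer blocks the medians were 0.03, -0.03 and -0.00 in NC and 0.07, -0.05 and 0.00 in the knockdown, and the groups overlapped. On the ratio to neighbours the median change of the short exons was 0.01. Their summed counts made up 1.67%, 1.88% and 1.71% of all block counts in NC and 1.94%, 2.13% and 2.31% in the knockdown, without overlap. This sum depends on the level of the host genes as well as on usage. Among the 5 exons with the most counts, for example, the 50-base exon of Timd2 held 42333 counts in NC and 111608 in the knockdown. That of Dppa3 held 63942 and 104550, both at nearly constant shares. The part of gene levels in the rise of the sum was not tested. No test of the difference between short exons and longer blocks was made.

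**Figure D1:**
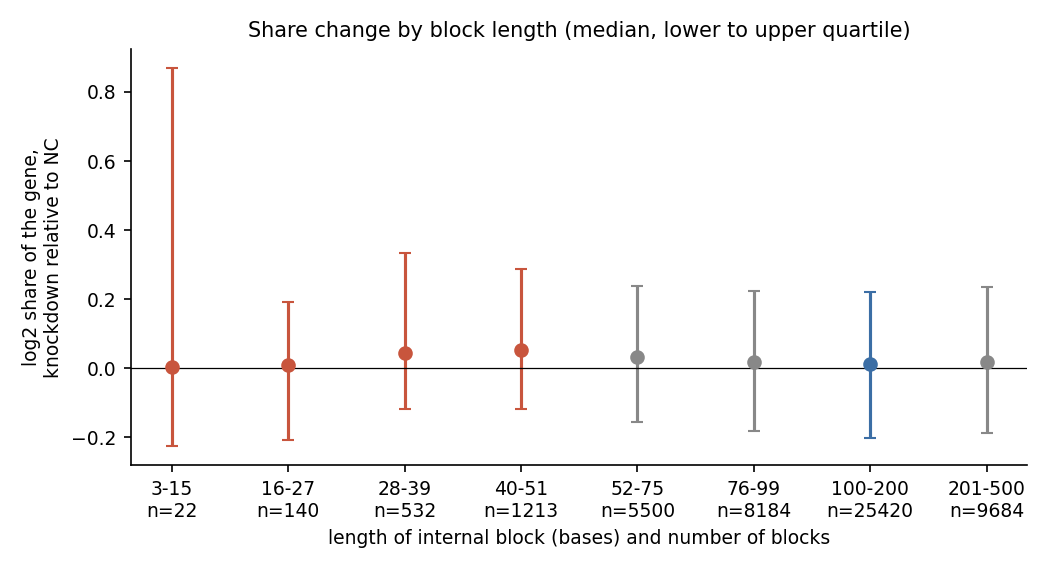
Median (point) and lower to upper quartile (bar) of the log2 change in share of the gene, knockdown relative to NC, for internal blocks binned by length in bases, with the number of blocks under each bin; red marks the short exons and blue the blocks of 100 to 200 bases. The medians run from 0.00 for 3 to 15 bases to 0.05 for 40 to 51 bases and 0.01 for 100 to 200 bases, and the 22 shortest exons have the widest quartile range.

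Within the short exons the median change did not grow as length fell, but fewer exons stayed near 0. The median log2 change was 0.00 for the 22 exons of 3 to 15 bases, 0.01 for the 140 of 16 to 27 bases, 0.04 for the 532 of 28 to 39 bases and 0.05 for the 1213 of 40 to 51 bases, as the plot of share change by length shows. The 22 shortest had the widest spread, with quartiles of -0.23 and 0.87, and a median of only 89 counts. In the same order of bins, 45.5%, 70.0%, 77.3% and 78.2% of exons stayed within 0.5 on the log2 scale. The median counts of the 3 longer bins were 204, 179 and 188. Of the 22 shortest, 22.7% were over 2-fold higher and 13.6% over 2-fold lower. At the limits of the rule, 161 exons of 51 bases had a median of 0.06 and 126 blocks of 52 bases a median of 0.03. The 72 exons with 30 to 34 counts had a median of 0.36, and 82 similar exons just under the limit, with 25 to 29 counts, had 0.12.

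Shares without overlap between the groups were found for 354 short exons. In 237 (12.4%) every knockdown library was above every NC library, where the background over all blocks was 10.6%, and in 117 (6.14%) every knockdown library was below, where the background was 8.38%. For the blocks of 100 to 200 bases the same counts were 10.5% and 7.76%. More than 2-fold higher shares were seen for 108 short exons (5.66%, background 3.83%) and more than 2-fold lower shares for 48 (2.52%, background 3.33%), where the blocks of 100 to 200 bases had 3.95% and 3.94%. The 622 exons with 30 to 99 counts held 82 of the 108 and 41 of the 48, whereas among the 318 with 1000 counts or more 1 was over 2-fold higher and 0 were over 2-fold lower. With 3 libraries against 3, an exact permutation test of 1 exon's share cannot give a two-sided p below 0.1. Of the 231 exons with a higher share and countable neighbours, 85 (36.8%) also had a higher ratio to neighbours in every knockdown library, beside 10.8% of all 1860 short exons with countable neighbours. On the lower side 45 of 114 (39.5%) did, beside 5.86% of all. For the longer blocks these percentages were 32.9% and 33.4%. Both measures use the block's own counts, so some agreement between them is built in.

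In the test of usage, which compares a block with the other blocks of its gene (edgeR diffSpliceDGE, Benjamini-Hochberg adjustment over all blocks), 5 of the 1905 short exons tested rose and 2 fell at an adjusted p under 0.05. That is 0.367% of them, beside a background of 0.225% over all blocks (0.168% rising and 0.057% falling) and 0.205% over the blocks of 100 to 200 bases (0.161% rising and 0.0433% falling), a difference of a few exons. At an unadjusted p under 0.05 (edgeR), 49 of the 1905 were higher and 17 lower. Of all 71885 blocks, 1343 were higher and 1058 lower. Of the 25418 blocks of 100 to 200 bases tested, 468 were higher and 395 lower. Of the 5 that rose, 2 had fewer than 10 counts in NC and met the count minimum only through the knockdown, where they had to be higher; the other 3 held 24 to 45 counts in NC. The other 2 of the 1907 were the only block of their gene past the count minimum and were not tested.

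The 5 that rose were all blocks that GENCODE vM21 does not hold as internal exons with the same start and end. That release is earlier than the one counted. Blocks that differ only in their boundaries fall in this class too: all 4 transcripts that span a 48-base block of Mllt10 hold an exon overlapping it. This was not so for the exons that rose in Gtf2e2, Ndufab1, Ndufa10 and Commd8. None of the 3, 5, 3 and 3 transcripts of that release that span them holds an exon overlapping them. For the exon of ENSMUSG00000118504 the release has no spanning transcript. Of the 65 short exons in this class 5 passed, including the 2 with fewer than 10 counts in NC. The median log2 change of the 65 was 0.40, with 21.5% over 2-fold higher. Of the 65, 8 had fewer than 10 counts in NC, and the 57 with at least 10 in each group had a median of 0.26. Among 1760 longer blocks of this kind 10 rose and 2 fell, with a median of 0.03. How many blocks of each set differ only in their boundaries was not counted. Of the 1515 tested exons that every spanning transcript holds 0 rose and 1 fell, and of the 325 that some transcript skips 0 rose and 1 fell, with the edgeR test. In these 2 classes 32 and 23 exons had an unadjusted p under 0.05 (edgeR), 23 higher and 9 lower, and 15 higher and 8 lower. For the longer blocks, 272 of 20959 in the first class were higher and 330 lower. In the second class 142 of 2699 were higher and 40 lower. Of the short exons, DESeq2 called 3 higher and 3 lower in the first class and 5 higher and 4 lower in the second. With limma voom these were 1 higher and 0 lower, and 2 higher and 2 lower. The count rule bears on this: 40 of the 1907 exons had fewer than 10 counts in NC and 23 fewer than 10 in the knockdown, so some entered only through the group in which they were high. Among exons with at least 10 counts in each group, an alternative chosen after seeing the data, 1 rose and 2 fell.

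**Figure D2:**
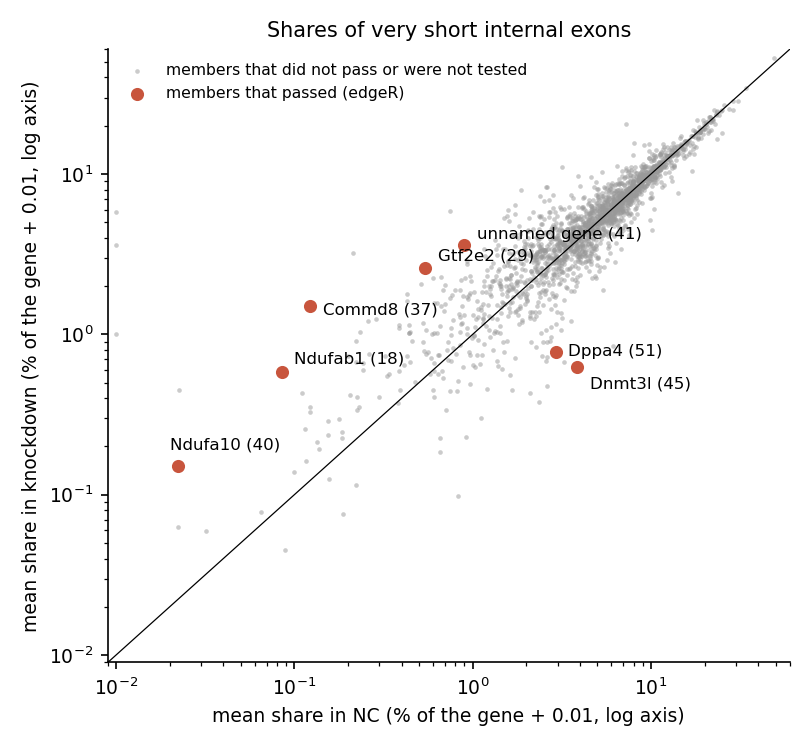
Mean share of the gene in NC (horizontal) against the knockdown (vertical) for each short exon, in percent plus 0.01 on log axes, with the line of equal shares; red points passed the usage test and carry the gene name and the exon length in bases. The 5 that rose lie at mean NC shares of 0.0124% to 0.885%, and Dppa4 and Dnmt3l lie below the line at 2.92% and 3.84%.

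Gtf2e2 encodes a subunit of the general transcription factor TFIIE. Its 29-base exon (chr8:33765002-33765030, plus strand, block 10 of 12) took 0.677%, 0.731% and 0.192% of the gene in NC and 3.11%, 2.09% and 2.50% in the knockdown. Every knockdown library was above every NC library, and the mean rose 4.81-fold, from 0.533% ± 0.297 to 2.57% ± 0.513 (SD, n = 3 each). The usage test gave a log2 difference of 2.34 (edgeR diffSpliceDGE, adjusted p = 0.00746). The exon also rose against its neighbours, from a ratio of 0.0372 to 0.180, and the other 10 blocks tested in the gene moved by -0.56 to 0.24 on the log2 scale, none of them passing. Without NC replicate 2 or 3 the adjusted p was 0.0571 or 0.371.

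Ndufab1 encodes the mitochondrial acyl carrier protein, which is also a subunit of respiratory complex I. Its 18-base exon (chr7:122094032-122094049, minus strand) was rare in both groups, at 0.0487%, 0.0773% and 0.0983% of the gene in NC and 0.631%, 0.547% and 0.546% in the knockdown. The groups were far apart relative to their spread: 0.0748% ± 0.0249 against 0.575% ± 0.0486 (SD, n = 3 each), or 7.68-fold, with a usage log2 difference of 2.83 (edgeR, adjusted p = 0.0476). The ratio to neighbours rose from 0.00325 to 0.0240, so most RNA of the gene lacked the exon in either group. The call sat at the threshold: without NC replicate 1, 2 or 3 the adjusted p was 0.184, 0.542 or 0.216, without knockdown replicate 2 or 3 it was 0.258 or 0.174, and with limma voom it was 0.0915.

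The other 3 that rose are named after their values were seen or carry no gene symbol. A 37-base exon of Commd8, which encodes a COMM domain protein, held 2, 0 and 2 counts in NC and 39, 17 and 11 in the knockdown, a mean share of 0.113% ± 0.0976 against 1.49% ± 0.778 (SD, n = 3 each). A 40-base exon of Ndufa10, another complex I subunit, held 2, 0 and 2 counts against 28, 11 and 13. These 2 exons held fewer than 10 counts in NC and met the count minimum only through the knockdown. Their values are given as a description and no test is given for them. The unnamed gene ENSMUSG00000118504 held a 41-base exon at 1.09%, 0.931% and 0.632% of the gene in NC and 3.62%, 4.72% and 2.41% in the knockdown (edgeR log2 difference 1.96, adjusted p = 0.0466). It overlaps exons of 4933434E20Rik and of another unnamed gene, so its counts cannot be assigned to 1 gene. Without NC replicate 1, 2 or 3, or knockdown replicate 2, its adjusted p was 0.184, 0.432, 0.427 or 0.426.

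Dppa4, a chromatin-associated protein of pluripotent cells and early embryos, used its 51-base exon less in the knockdown (plus strand, block 4 of 7, sequence above). Its share was 2.79%, 2.86% and 3.11% in NC and 0.659%, 0.976% and 0.674% in the knockdown. The groups were well separated, the mean going from 2.92% ± 0.166 to 0.770% ± 0.179 (SD, n = 3 each), 3.795-fold lower, with a usage log2 difference of -1.94 (edgeR, adjusted p = 0.0114). The annotation holds 1 transcript with this exon and 1 that skips it, and against its neighbours the exon fell from a ratio of 0.171 to 0.0463. The other 6 blocks of the gene differed by -0.06 to 0.13 on the log2 scale, and the gene as a whole by 0.04 (edgeR, adjusted p = 0.937). Without NC replicate 1, 2 or 3, or knockdown replicate 3, the adjusted p was 0.0567, 0.134, 0.0931 or 0.116, while the log2 difference stayed between -1.98 and -1.84 in these fits.

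Dnmt3l, the catalytically inactive cofactor of the de novo DNA methyltransferases, also passed, but its 45-base exon moved with its neighbours. The exon took 5.30%, 3.17% and 3.05% of the gene in NC and 0.808%, 0.664% and 0.369% in the knockdown, 6.26-fold lower on average, with a usage log2 difference of -2.93 (edgeR, adjusted p = 0.0262). Its ratio to neighbours was 0.935 in NC and 0.815 in the knockdown, a far smaller difference. Blocks 5 to 12 of the 18 blocks, counted from the 5′ end and picked out after their values were seen, together took 47.9%, 29.01% and 27.5% of the gene in NC and 7.003%, 6.17% and 3.802% in the knockdown. Of these 8 blocks 7 passed the usage test. Blocks 13 to 18 held most of the rest, 64.3% ± 11.5 in NC and 94.2% ± 1.62 in the knockdown (SD, n = 3 each), and 0 of these 6 passed by edgeR. Without NC replicate 1 or 2, or knockdown replicate 1, 2 or 3, the adjusted p of the 45-base exon was 0.299, 0.144, 0.0784, 0.160 or 0.130, and with limma voom it was 0.300.

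**Figure D3:**
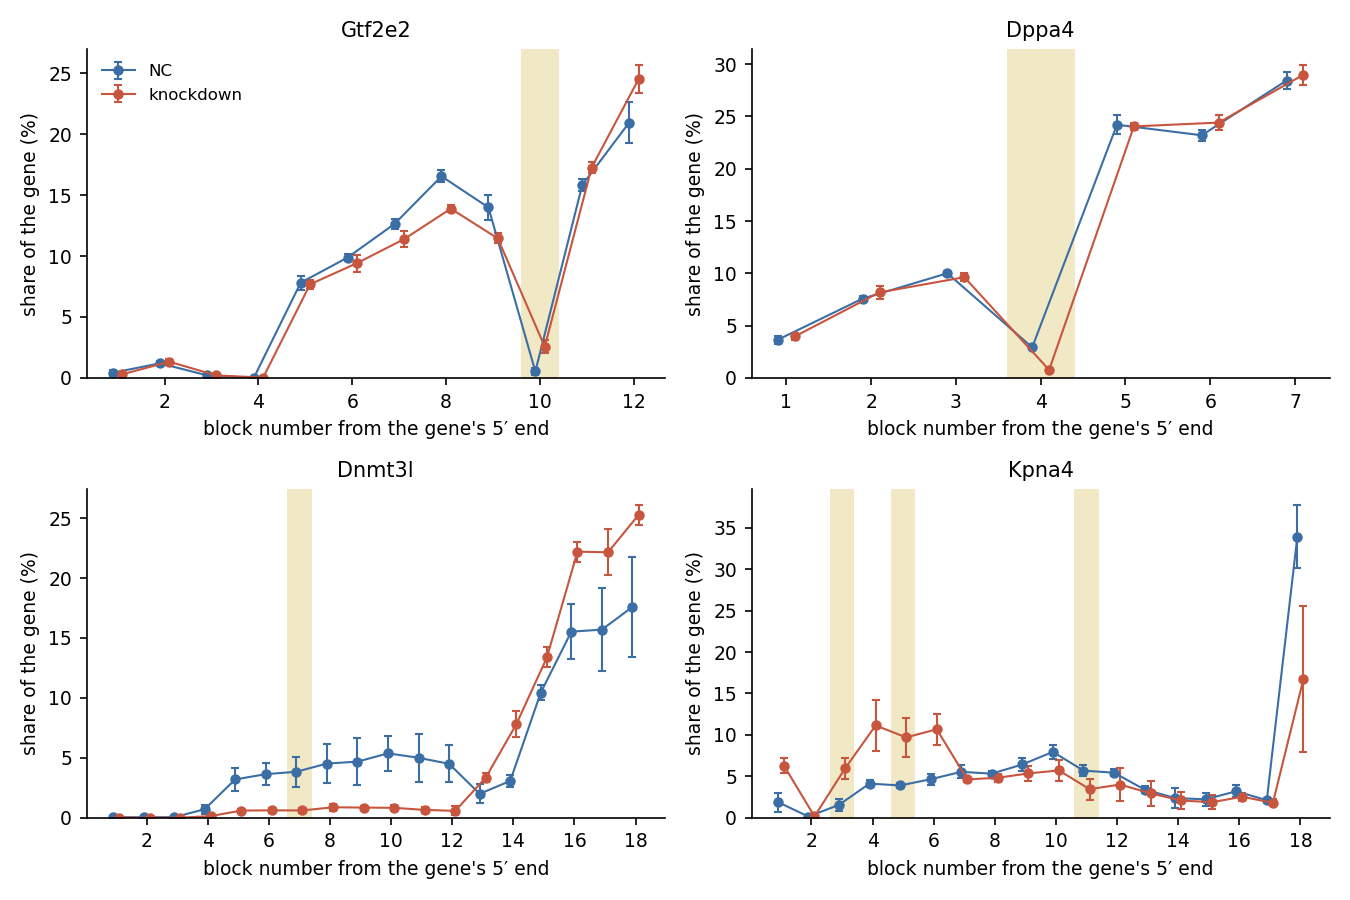
Mean share of the gene (vertical, percent; bars are the SD of 3 libraries) for each block in order from the 5′ end, in NC (blue) and the knockdown (red), with the short exons shaded. In Gtf2e2 and Dppa4 only the shaded block passed the usage test, in Dnmt3l 7 of 15 tested blocks passed, and in Kpna4 0 of 17 did although its first blocks lie higher in the knockdown.

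Kpna4, a nuclear import receptor of the importin alpha family, showed the opposite arrangement, without passing the test. Its 45-base exon near the 5′ end took 2.36%, 1.36% and 0.965% of the gene in NC and 5.31%, 5.10% and 7.47% in the knockdown, without overlap (edgeR usage log2 difference 1.97, adjusted p = 0.0923). Its ratio to neighbours was 0.727 ± 0.270 in NC and 1.07 ± 0.108 in the knockdown (SD, n = 3 each). A 30-base exon of the same gene went from 4.22%, 3.64% and 3.86% to 8.47%, 8.26% and 12.4%, while its ratio to neighbours was 0.892 and 0.889. Blocks 1 to 6 of 18, again picked out after the values were seen, together held 16.3% ± 2.45 in NC and 44.0% ± 9.42 in the knockdown (SD, n = 3 each). A second 45-base exon, block 11, was lower, at 6.20%, 5.91% and 4.98% against 4.80%, 3.31% and 2.28%. DESeq2 (adjusted p = 0.00349) and limma voom (0.0216) called the first of these exons, as did edgeR without knockdown replicate 1 (0.0480).

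The other exons named on the higher side had at least 100 counts and groups without overlap, but an adjusted p above 0.05. NC held 25 to 48 counts of each, so they met the 100 counts mostly through the knockdown, where they were higher. The same holds for the first 45-base exon of Kpna4 (34 counts in NC and 171 in the knockdown). These exons were also picked by the size of their change, so their values are a description. In 4 of them the exon was a minor one. In Nudcd2, a NudC domain protein, a 51-base exon took 0.444%, 0.471% and 0.338% in NC and 2.04%, 1.73% and 1.58% in the knockdown (edgeR, adjusted p = 0.0709). In Cetn3, a centrin of the centrosome, a 33-base exon took 0.279% ± 0.105 and 1.23% ± 0.135 (SD, n = 3 each). A 47-base exon of Mrpl42, a mitochondrial ribosomal protein, is held in the annotation only by a transcript marked for nonsense-mediated decay and took 0.1003% ± 0.0327 and 0.421% ± 0.113. A 45-base exon of Zdhhc20, a palmitoyltransferase, lies only in a noncoding transcript and took 0.655% ± 0.565 and 2.26% ± 0.415. In all 4 the ratio to neighbours was higher in the knockdown as well, for example 0.0332 and 0.136 in Cetn3. DESeq2 called Nudcd2 (adjusted p = 0.000503), Cetn3 (5.6e-05) and Mrpl42 (0.000212), and limma voom called Nudcd2 (0.00399) and Zdhhc20 (0.00245). The exons of Bend3 (48 bases) and Slc25a46 (43 bases), which all their spanning transcripts hold, had mean shares of 7.24% and 2.51% in NC and 20.4% and 6.74% in the knockdown.

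On the lower side, the exon with the lowest adjusted p among those named that did not pass was a 47-base coding exon of Brd8, a bromodomain protein of a histone acetyltransferase complex. It took 3.57%, 2.83% and 1.36% of the gene in NC and 0.573%, 0.628% and 0.209% in the knockdown, and its ratio to neighbours was 0.759 and 0.236 (edgeR usage log2 difference -2.55, adjusted p = 0.0722; DESeq2, adjusted p = 0.0159). The knockdown side held 5, 5 and 2 counts. Mark3, a microtubule affinity regulating kinase, held a pair of adjacent short exons that were both lower: the 27-base exon at 1.32%, 2.63% and 2.28% against 0.292%, 0.457% and 0.511%, and the 45-base exon at 2.48%, 3.39% and 2.41% against 1.24%, 1.71% and 1.36% (edgeR, adjusted p = 0.223 for the first). Each is a neighbour of the other, and the ratio to neighbours of the 45-base exon was 2.74 in NC and 5.82 in the knockdown. The 27-base exon has under 100 counts and is named after its values were seen. Triml2, of the tripartite motif-like proteins, had a 23-base exon at 5.16% ± 1.18 and 2.62% ± 0.334 of the gene (SD, n = 3 each), with ratios of 0.517 and 0.230. Triml2 as a whole rose (log2 1.36, edgeR adjusted p = 0.0188), and the counts of the exon went from 95 in NC to 146 in the knockdown. For Vps35l, Lrrc28, Pltp and Tmem150a mean shares were 1.99-fold to 2.53-fold lower, while the ratios to neighbours differed by less (1.59 and 1.48 in Vps35l, 0.841 and 0.860 in Pltp). Lrrc28 rose at gene level (log2 2.86, edgeR adjusted p = 0.00143), and the counts of its exon went from 33 in NC to 116 in the knockdown. Pltp (-1.79) and Tmem150a (-1.52) fell at gene level (edgeR, adjusted p = 0.0160 and 0.0108). DESeq2 called the 47-base Vps35l exon lower (adjusted p = 0.0113). The Pltp exon overlaps an exon of another gene.

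**Figure D4:**
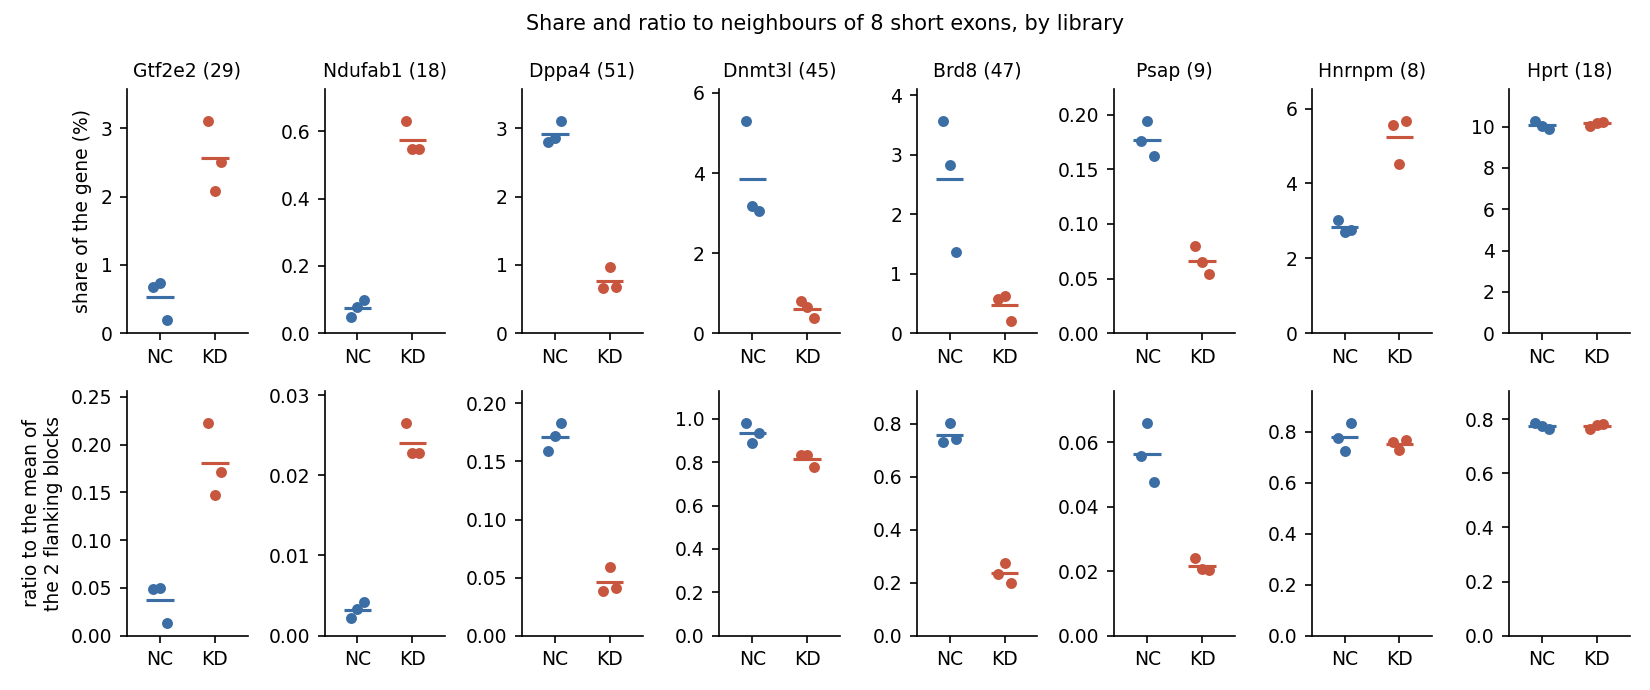
Share of the gene in percent (upper row) and ratio to the mean of the 2 flanking blocks (lower row) of 8 short exons, with the exon length in bases after the gene name; points are libraries and bars their mean, in NC (blue) and the knockdown (red, KD). Gtf2e2, Ndufab1, Dppa4, Brd8 and Psap separate widely on both measures, Dnmt3l widely on share and narrowly on the ratio (0.935 and 0.815), Hnrnpm separates on share only, and the Hprt exon stays near 10.1% in both groups.

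Among the 6 shortest exons with at least 100 counts, 0 passed the edgeR test. Cyth2, an exchange factor for Arf GTPases whose 3-base exon is known to add a glycine to its lipid-binding PH domain, kept that exon at 5.38%, 5.09% and 6.65% of the gene in NC and 4.94%, 4.47% and 5.03% in the knockdown. Its groups were separated only narrowly, and the ratio to neighbours was 0.577 ± 0.0499 and 0.502 ± 0.0191 (SD, n = 3 each). The 8-base exon of Pitpna took 5.76%, 6.61% and 5.45% in NC and 5.84%, 5.57% and 6.40% in the knockdown, the same mean of 5.94%. Its paralog Pitpnb had 4.40%, 4.51% and 3.82% against 4.73%, 4.97% and 4.72%, without overlap and 1.13-fold higher on average. The 8-base exon of Hnrnpm, itself a splicing regulator, took 3.03%, 2.71% and 2.76% in NC and 5.55%, 4.52% and 5.67% in the knockdown, 1.85-fold higher, but its ratio to neighbours was 0.778 and 0.752. The 9-base exon of Spint5 took 21.0% ± 0.695 and 17.9% ± 1.93.

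Psap, the precursor of the lysosomal saposins, carries a known alternatively spliced 9-base exon in its saposin B part. The exon took 0.175%, 0.194% and 0.162% of the gene in NC and 0.0798%, 0.0649% and 0.0542% in the knockdown. The groups did not overlap, the mean share was 2.67-fold lower and the ratio to neighbours went from 0.0564 to 0.0216, but the usage test did not pass (edgeR, log2 difference -1.16, unadjusted p = 0.209). The whole gene fell by 2.38 on the log2 scale (edgeR, adjusted p = 0.0331), leaving 34, 5 and 3 counts of the exon in the knockdown. Among all 22 exons of 3 to 15 bases 0 passed by edgeR and by limma voom and 1 was higher by DESeq2, with 2 at an unadjusted p under 0.05 in edgeR.

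The 5 exons with the most counts differed little between the groups. Dppa3, a maternal protein that protects DNA methylation in the early embryo, had its 36-base exon at 20.4%, 20.5% and 20.5% of the gene in NC and 20.7%, 20.6% and 20.4% in the knockdown, from 168492 counts. Hprt, the purine salvage enzyme, had its 18-base exon at 10.3%, 10.03% and 9.91% against 10.05%, 10.2% and 10.2%, and its 47-base exon at 10.9% ± 0.218 against 11.3% ± 0.182 (SD, n = 3 each). The groups overlapped for the first of these 3 exons and for the 18-base one, and lay next to each other for the 47-base one. Timd2, a receptor of the TIM family, had a 50-base exon at 12.4% ± 0.682 and 12.99% ± 0.175 and a 37-base exon at 7.54% ± 0.535 and 6.62% ± 0.228. The 37-base exon was lower in every knockdown library on share and on the ratio to neighbours (means 0.705 and 0.609), while the 50-base exon overlapped on both. Of the 318 exons with 1000 counts or more, 98.7% stayed within 0.5 on the log2 scale. Of the 317 of them tested, 0 passed by edgeR or limma voom, while 2 were higher and 2 lower by DESeq2 (1 at an unadjusted p under 0.05 in edgeR).

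Exons without any count in NC were few. The 3 were a 49-base exon of Tfcp2, a transcription factor, with 11, 14 and 14 counts in the knockdown, a 31-base exon of Coa7, a respiratory chain assembly factor, with 12, 9 and 13 counts, and a 14-base exon of Gm4876 with 0, 9 and 21 counts. With 3 counts for the whole NC group taken as the floor, their shares were at least 2.73-fold, 6.30-fold and 9.10-fold higher. These exons met the count minimum only through the knockdown, where they had to be higher. Their values are therefore a description, no test is given for them, and none is among the exons that passed. No short exon was without counts in the knockdown group.

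Several genes held more than 1 short exon; 349 of the 1430 did, with the most, 9, in Dmkn. In 19 genes at least 2 short exons had shares without overlap on the same side, higher in 14 genes and lower in 5. Over all blocks, 10.6% had higher and 8.38% lower shares without overlap. Blocks of 1 gene can move together, and the same count for longer blocks was not made, so the 19 are a description. Kpna4 is among the 14 although 1 of its short exons was lower without overlap. The genes given next were picked out after their values were seen. In Pcbp2, a poly(C)-binding protein, the adjacent 24-base and 33-base exons were both higher in every knockdown library (2.28%, 2.80% and 1.81% against 3.89%, 3.78% and 5.19% for the first), and a 42-base exon further downstream was at 8.41% to 9.87% against 7.504% to 9.16%. In Sfpq, a splicing factor, a 47-base exon of a noncoding transcript took 4.06%, 4.65% and 7.17% in NC and 10.8%, 9.30% and 10.7% in the knockdown, with a ratio to neighbours of 0.245 and 0.860. This exon overlaps an exon of another gene. The gene's 49-base exon was at 9.20%, 8.84% and 11.3% against 13.2%, 12.9% and 11.7%, with a ratio of 0.769 and 0.757. On the lower side, in the zinc finger gene Zfp280d, a 37-base exon took 3.08%, 1.51% and 2.14% against 0.988%, 0.844% and 0.648%, and a 46-base exon 1.95%, 0.756% and 0.890% against 0.658%, 0.493% and 0.194%. Zfp280d as a whole rose (log2 1.33, edgeR adjusted p = 0.0201). The counts of these 2 exons were 37 and 20 in NC and 34 and 18 in the knockdown. Their ratios to neighbours overlapped between the groups, with means of 1.05 and 1.72 in NC and 0.817 and 1.45 in the knockdown. None of these exons of Pcbp2, Sfpq and Zfp280d passed the edgeR test.

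Genes known for microexons in other tissues were barely represented. Of a list of 48 such genes only Dnm2, Macf1 and Tmem87a held any of the short exons counted here, 4 in all, and 0 of the 4 passed by edgeR, DESeq2 or limma voom (1 at an unadjusted p under 0.05 with each). The 18-base exon of Macf1, a cytoskeletal crosslinker, took 1.52%, 1.85% and 1.48% of the gene in NC and 0.105%, 0.719% and 0.814% in the knockdown, from 65 and 15 counts. The 12-base exon of Dnm2, the ubiquitous dynamin, took 1.45% ± 1.11 and 1.57% ± 0.683 (SD, n = 3 each), and the 2 exons of Tmem87a were at 3.04% and 3.92% in NC and 3.69% and 4.68% in the knockdown.

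Of 38 regulators of short exons, splice site factors and exon junction proteins, 29 were tested at gene level, and 2 rose and 5 fell (edgeR, adjusted p under 0.05), with a median log2 change of -0.29 beside 0.03 over all genes. Those that fell were Eif4a3 itself, Mbnl2 (log2 -2.28), Ptbp3 (-1.89), Raver1 (-1.81) and Srrm2 (-1.35); those that rose were U2af1 (1.37), the small subunit of the factor that reads the 3′ splice site, and Ptbp2 (1.499), the neuronal relative of the splicing repressor Ptbp1. Ptbp2 was low throughout, at 3.78, 2.12 and 2.62 CPM in NC and 7.54, 8.78 and 7.88 CPM in the knockdown. Over all 15619 genes tested, 7.52% rose and 5.56% fell. The partners of Eif4a3 in the exon junction complex, Magoh, Magohb, Rbm8a and Casc3, had log2 changes of 0.28, 0.55, 0.57 and -0.48, none passing (edgeR; the lowest adjusted p was 0.244, for Magohb).

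Of the 1430 genes that hold the short exons, 71 (4.97%, background 7.52%) rose and 96 (6.71%, background 5.56%) fell at gene level (edgeR, adjusted p under 0.05). Among exons in genes that rose, the median log2 change in share was 0.04, among those in genes that fell 0.01, and among the rest 0.05. All 7 exons that passed the usage test lay in genes whose own level was not called.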

How the data were processed

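The authors deposited 1 table of raw read counts per exon line for the 6 libraries. Per the submitters' processing notes, FastQC 0.11.9, fastp 0.20.1, STAR 2.7.6a and featureCounts 2.0.1 were used with GRCm38; per the file headers, featureCounts took paired reads at exon level, counted a read in every exon it overlapped, used GENCODE vM29 lifted to GRCm38 and strand setting 2. Smart-seq2 as usually made keeps no strand, so counts of overlapping genes on opposite strands may not be separable.

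Overlapping exon lines of a gene were merged into blocks, each taking its most counted line. Shares were compared on log2 after adding 0.01%, ratios to neighbours after adding 0.5 counts (flanks with at least 30 counts). Usage was tested on the counts with edgeR 4.0.16 (TMM, diffSpliceDGE, which gives no SE) over all 71885 blocks of at least 30 counts in 7949 genes, genes with edgeR's quasi-likelihood test, and both with Benjamini-Hochberg adjustment and a threshold of 0.05. DESeq2 1.42.0 and limma 3.58.1 were alternatives, and the scripts were tested on simulated data. Block positions, transcripts and sequences came from GENCODE vM21.

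The members and gene lists were chosen with earlier results of these data known. Exons were named if they passed with at least 100 counts (up to 10 per direction, filled up by the largest change in share without overlap between groups), if they were the 6 shortest with 100 counts or the 5 with most counts; Gm and Rik genes are otherwise not named. Gm4876, Coa7 and Tfcp2 are named for their count of 0, Commd8 and Ndufa10 because they passed. A further marker list, sperm (3 genes), summed to 0.371 to 2.14 CPM over the libraries.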

Additional observations from a re-analysis of the deposited data

How the results depend on the processing

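Beside 7 short exons called in the reported fit, DESeq2 called 24, a minimum of 100 counts per block 3, no minimum 2, summing all exon lines of a block 4, leaving out blocks that overlap another gene 4, and at least 10 counts in each group 3; leaving out 1 library gave 0 to 6. For blocks of 100 to 200 bases the count of 52 became 279 with DESeq2, 32 with a minimum of 100, 31 with none and 24 with 10 counts in each group, and 16 to 76 with 1 library left out. The median log2 change of short exons was 0.0129 on the ratio to neighbours and 0.0340 to 0.0609 with 1 library left out; that of the longer blocks was -0.0176 to 0.0398, negative without knockdown replicate 1. Host genes called, 167 in the reported fit, were 299 with DESeq2 and 59 to 221 with 1 library left out. With a replicate block 11 short exons and 90 longer blocks were called, and Dnmt3l was lost (adjusted p = 0.196, edgeR). Whether libraries of the same number were paired is not stated, and the correlations of their deviations do not settle it. Deviations of same-numbered libraries correlated at 0.27, 0.0044 and 0.10. NC replicates 1 and 3 were closest to the knockdown library of their own number, and NC replicate 2 to knockdown replicate 3 (0.187). Over 32 named exons and 506 alternatives the log2 difference changed sign in 6, all of exons near 0: Pitpna without NC replicate 2 (0.0753), knockdown replicate 1 (0.000961) or knockdown replicate 2 (0.0265), Dppa3 with limma voom (-0.0773) or without knockdown replicate 2 (-0.00121), and the 18-base exon of Hprt with limma voom (-0.00873); with 1 library left out Pitpna ranged from -0.0873 to 0.0753 and Dppa3 from -0.00121 to 0.0123. Other values kept their sign, with 49 losing and 15 gaining a call. The cause of these differences was not tested. Of the 1907 short exons 622 had under 100 counts.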
